A study of Mus musculus with 4 samples.

Results

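The genes described here are the semaphorins, their plexin and neuropilin receptors, and Cd72, a further receptor of semaphorin 4D, in mouse mammary tumours. The members were taken from a fixed list of gene symbols, 20 semaphorins, 9 plexins, 2 neuropilins and Cd72, and all 32 were found among the 23635 genes counted. This list was chosen with earlier results of these data known. A level is given throughout as unique molecular identifiers (UMIs, tags that mark single captured RNA molecules) of the gene per 1000000 UMIs of the named cells of 1 library (CPM).

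Semaphorins are secreted or membrane-bound guidance proteins, first known for steering axons, that also act on immune cells, blood vessels and tumour cells. Plexins are their transmembrane receptors and signal through small GTPases, while neuropilins bind most class 3 semaphorins and vascular endothelial growth factor and pass the signal on through a plexin. Semaphorin 4D (CD100) of lymphocytes and myeloid cells binds plexin-B1 and plexin-B2, and in the immune system CD72, an inhibitory receptor best known on B cells.

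The 250 bases before a listed start of Sema4d and of both its receptors that were well detected are shown because the class patterns of these genes are compared below. The sequences are from RefSeq on GRCm38.p6, each read 5′ to 3′ on the gene's own strand, and 27 of the 32 genes had an entry. The capitals mark the letters gaggaa or, on the other strand, ttcctc, the purine-rich core that the myeloid and B cell factor PU.1 can bind.
Sema4d, chr13:51756684-51756933, minus strand: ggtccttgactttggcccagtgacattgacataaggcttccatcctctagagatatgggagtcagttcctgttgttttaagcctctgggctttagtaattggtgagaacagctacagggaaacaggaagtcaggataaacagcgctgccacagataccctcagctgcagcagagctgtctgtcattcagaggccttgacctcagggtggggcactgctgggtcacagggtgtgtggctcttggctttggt
Cd72, chr4:43454627-43454876, minus strand: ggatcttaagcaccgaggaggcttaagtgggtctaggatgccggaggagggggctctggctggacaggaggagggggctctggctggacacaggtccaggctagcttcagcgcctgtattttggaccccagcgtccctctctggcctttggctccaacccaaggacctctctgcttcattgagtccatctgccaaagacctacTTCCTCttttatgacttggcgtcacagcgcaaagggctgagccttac
Plxnb2, chr15:89180789-89181038, minus strand: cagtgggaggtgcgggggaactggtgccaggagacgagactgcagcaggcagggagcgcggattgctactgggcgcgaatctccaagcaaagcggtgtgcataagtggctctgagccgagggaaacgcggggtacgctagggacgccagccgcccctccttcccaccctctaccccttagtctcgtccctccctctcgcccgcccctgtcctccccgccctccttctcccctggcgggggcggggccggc
The Cd72 sequence held these letters 1 time and the other sequences 0 times, and 23.3% of the 32851 listed promoters of the same length held them on either strand. Sema4d had 3 listed starts, of which the one farthest upstream is shown, and Plxnb2 had 2. The Sema4d stretch lies inside the gene as GENCODE M21 gives it (chromosome 13, 51685529 to 51793747, minus strand), whose own start is farther upstream. The number of CG dinucleotides was 1 for Sema4d, 6 for Cd72 and 20 for Plxnb2, against a median of 6 over all listed promoters. A match of letters is a description of the sequence and was not tested for function.

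Transplanted tumours of py8119, a mouse mammary carcinoma line used as a model of triple-negative breast cancer, were dissociated into single cells and sequenced in droplets. The groups were a control labelled NC (2 libraries) and tumours with a short hairpin RNA (shRNA) against Sema4d (2 libraries). The sources used here do not give the host strain, age or sex, what the control carried, how the hairpin was delivered, or whether each library came from its own animal. The p-values therefore measure only the spread between libraries, which may be technical. The labels name the cells as tumour cells, but every library also held host cells.

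The libraries held 10575 to 13173 cells, 83513906 to 119758159 UMIs in all and a median of 5690 to 8180 UMIs per cell. Of 45220 cells, 45062 passed the cell filters and 42359 were not marked as doublets. Clusters were named from marker genes, with the 32 genes left out of the clustering, which gave 26151 tumour-like, 6742 macrophage-like, 1520 monocyte-like, 301 dendritic-like, 1688 T-like and 263 NK-like cells. Fibroblast-like (230), endothelial-like (80), mammary epithelial-like (168) and neutrophil-like (123) cells had under 20 cells in at least 1 library and are given as values only. Unnamed cells were 19.6% and 15.3% of the NC libraries and 5.37% and 8.42% of the shRNA libraries, led in number by a cluster of 3527 cells with C1qa and Retnla. That cluster, which matched the macrophage list best, was left out because 20.2% of it was marked as doublets where 20% was the limit, and its other cells were 7.96% and 9.86% of the NC and 3.34% and 5.61% of the shRNA libraries. Pairs of libraries shared 756 to 3782 cell names, while 0 cells had identical counts in different libraries. RNA released by broken cells was estimated from markers that a class should lack. The highest value over several marker lists was kept, and all cells of the library served as the source profile. The estimate can therefore exceed the true amount: Sema7a in macrophage-like cells had a mean of 1.26 CPM against an estimate of 2.26 CPM. It was 6.74% to 9.43% of the UMIs of tumour-like cells, 8.49% to 16.3% of macrophage-like cells and 7.01% to 8.53% of T-like cells. The same estimate was 8.52% to 13.2% in monocyte-like, 9.52% to 19.7% in dendritic-like and 7.42% to 11.9% in NK-like cells. In the classes of few cells it reached 31.4% in fibroblast-like, 43.3% in endothelial-like, 20.6% in mammary epithelial-like and 80.0% in neutrophil-like cells of 1 library.

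Of the 32 genes, 27 reached a mean of 10 CPM in at least 1 class. The other 5 were Sema4f, Sema4g, Sema5b, Sema6c and Plxnb3, with highest class means of 6.42, 0.652, 0.251, 9.70 and 0.684 CPM. Endothelial-like cells gave the highest mean of 13 genes, fibroblast-like cells of 5, mammary epithelial-like cells of 4 and tumour-like cells of 3. The first 3 of these counts rest on classes of few cells. The same counts over all genes were not made, so they do not set the members apart from other genes. Some leads, such as that of Plxnd1, held in all 4 libraries. Others held in 2, as for Sema3a (endothelial-like over fibroblast-like cells) and for Sema4b and Plxnb2 (mammary epithelial-like over macrophage-like cells). Levels are compared between classes within a gene, because capture differs between genes.

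**Figure D1:**
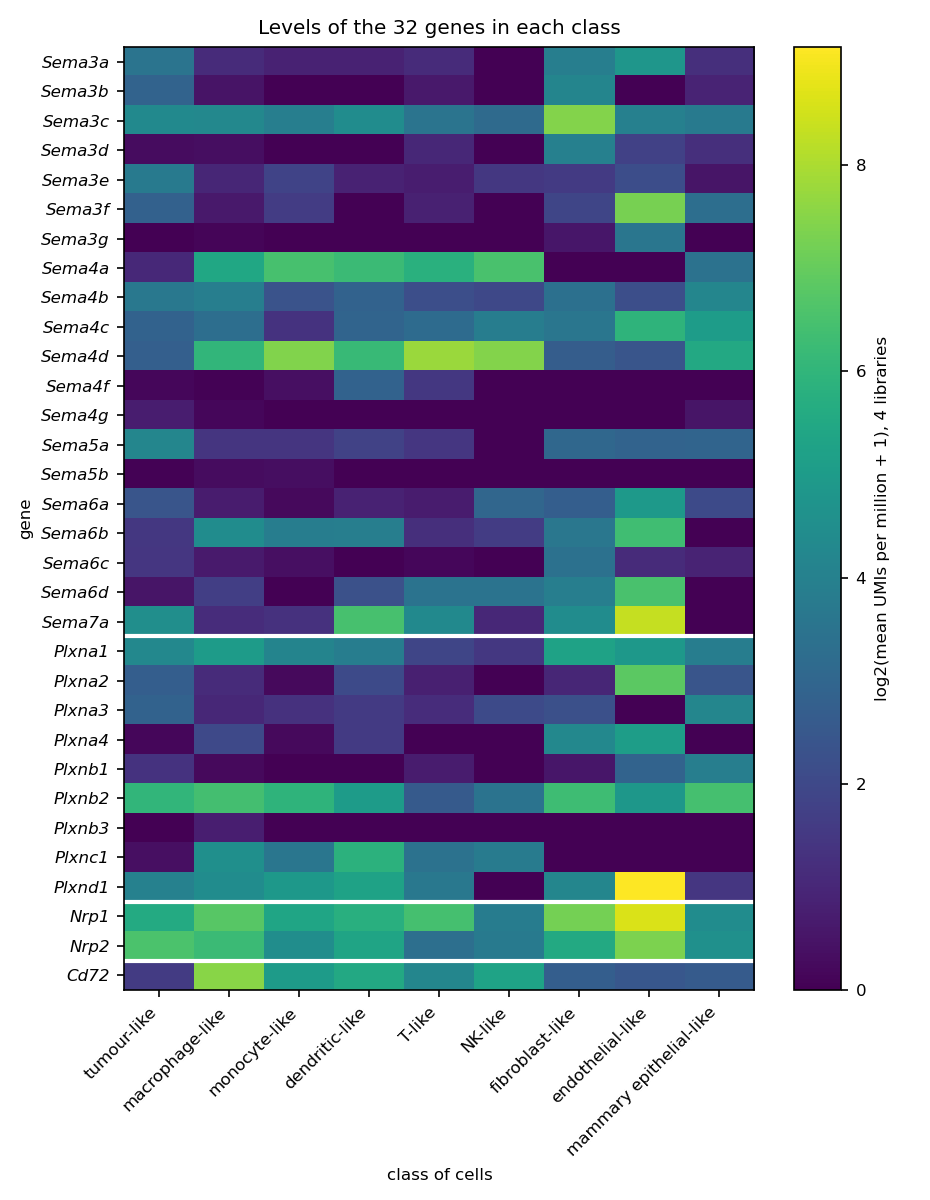
Mean level of each of the 32 genes (rows: semaphorins, plexins, neuropilins and Cd72, parted by white lines) in 9 classes of cells (columns), as log2 of the mean CPM of 4 libraries plus 1. Rows are to be read across: Sema4d and Sema4a stand out in the immune classes, Cd72 in macrophage-like cells, and Plxnd1, Nrp1 and Sema7a in endothelial-like cells.

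Among the membrane-bound class 4 semaphorins, Sema4d had its highest class means in the immune classes and was low in tumour-like cells. In T-like cells it stood at 250 and 243 CPM in the NC and 183 and 190 CPM in the shRNA libraries. In monocyte-like cells the values were 186 and 149 CPM against 162 and 178 CPM, and in NK-like cells 253 and 164 CPM against 121 and 163 CPM. Among the tested classes the order of the 4-library means was T-like (217 CPM), NK-like (175 CPM), monocyte-like (169 CPM), dendritic-like (70.7 CPM) and macrophage-like (63.1 CPM). Values of the first 3 overlapped, as did those of the last 2, while monocyte-like cells lay above dendritic-like cells in all 4 libraries. Tumour-like cells had 6.57 and 7.37 CPM against 3.87 and 5.44 CPM, above the 0.833 to 2.10 CPM that free RNA would give. Every library was higher in each of these immune classes than in its own tumour-like cells. Outside the immune classes, mammary epithelial-like cells had 58.9 and 25.4 CPM (NC) and 43 and 52.7 CPM (shRNA), on 2 to 30 UMIs.

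Sema4a, a ligand of plexin-D1, plexin-B2 and neuropilin-1 in immune cells, followed the same classes. It was at 41.1 to 45.9 CPM in macrophage-like cells, 73.2 to 98.4 CPM in monocyte-like cells and 50.5 to 61.5 CPM in T-like cells. Sema4a had its highest class mean, 90.4 CPM, in NK-like cells (66.7 to 152 CPM), and dendritic-like cells had 42.6 to 84.7 CPM. The NK-like lead over monocyte-like cells (mean 87.4 CPM) held in 1 of the 4 libraries only. In tumour-like cells its mean was 1.05 CPM. Monocyte-like cells exceeded macrophage-like cells in all 4 libraries, with no overlap of the values. Sema4b, by contrast, was spread over tumour-like cells (10.4 to 13 CPM) and macrophage-like cells (13.2 to 15.9 CPM). Its highest mean was in mammary epithelial-like cells, at 17.2 CPM. Sema4c reached 37.8 to 76.9 CPM in endothelial-like and 25.4 to 43.9 CPM in mammary epithelial-like cells and 6.27 CPM on average in tumour-like cells.

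The secreted class 3 semaphorins had their highest class means in fibroblast-like cells (Sema3b, Sema3c and Sema3d), endothelial-like cells (Sema3a, Sema3f and Sema3g) or tumour-like cells (Sema3e). Sema3c, which acts through neuropilins and plexin-D1, was at 168 and 200 CPM (NC) and 147 and 184 CPM (shRNA) in fibroblast-like cells, at 16.6 to 22.8 CPM in tumour-like cells and at 16.5 to 20.7 CPM in macrophage-like cells. Every fibroblast-like value lay above every tumour-like value. Sema3e, the direct ligand of plexin-D1, stood at 9.88 to 14.3 CPM in tumour-like cells and at a mean of 3.53 CPM in the next class. Sema3f, a ligand of neuropilin-2, stood at 111 to 210 CPM in endothelial-like cells on 15 to 30 cells per library. Sema3a, the classical repellent ligand of neuropilin-1, was at 9.98 to 11.3 CPM in tumour-like cells. In endothelial-like cells it had 9.62 and 18.6 CPM (NC) and 63 and 16.2 CPM (shRNA) on 2 to 6 UMIs each, and in fibroblast-like cells 23.5 and 33.3 CPM against 0 UMIs in both shRNA libraries, which allows up to 15.7 and 5.70 CPM. Sema3b and Sema3d had their highest means in fibroblast-like cells, at 17.1 and 14.7 CPM, and Sema3g in endothelial-like cells, at 11.0 CPM.

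Of the remaining ligands, Sema5a was highest in tumour-like cells, at 17.4 and 18.9 CPM in the NC and 16.5 and 16.9 CPM in the shRNA libraries, and the next class, fibroblast-like, had a mean of 7.32 CPM. Sema7a, a lipid-anchored ligand of plexin-C1 and of integrins, was at 250 to 535 CPM in endothelial-like cells, 40.8 to 169 CPM in dendritic-like cells and 17.9 to 26.0 CPM in tumour-like cells. Its mean in macrophage-like cells was 1.26 CPM. Sema6b was at 17.6 to 24.5 CPM in macrophage-like and 52.9 to 126 CPM in endothelial-like cells. Sema6d and Sema6a also had their highest means in endothelial-like cells, at 89.7 and 30.2 CPM.

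Among the plexins, Plxnb2, a receptor of semaphorin 4D and 4A, was found in tumour-like, myeloid, fibroblast-like and mammary epithelial-like cells. Its mean was 85.8 CPM in mammary epithelial-like and 77.9 CPM in fibroblast-like cells, both classes of few cells. Its level was 72.9 and 66.3 CPM in NC and 60.4 and 53.9 CPM in shRNA tumour-like cells, and 96.7 and 103 CPM against 67.8 and 72.8 CPM in macrophage-like cells. In T-like cells its mean was 5.05 CPM, where free RNA was estimated to give 5.16 CPM. Plxnb1, the high-affinity plexin of semaphorin 4D in epithelial cells and neurons, was at 7.03 to 19.6 CPM in mammary epithelial-like cells and at a mean of 1.56 CPM in tumour-like cells. Cd72 was at 166 and 198 CPM (NC) and 156 and 210 CPM (shRNA) in macrophage-like cells, and the next class, dendritic-like, had 33.2 to 56.1 CPM. In tumour-like cells Cd72 was at 2.26 and 3.14 CPM against 1.40 and 1.32 CPM, where the free-RNA estimate was 2.90, 3.45, 0.972 and 1.32 CPM.

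**Figure D2:**
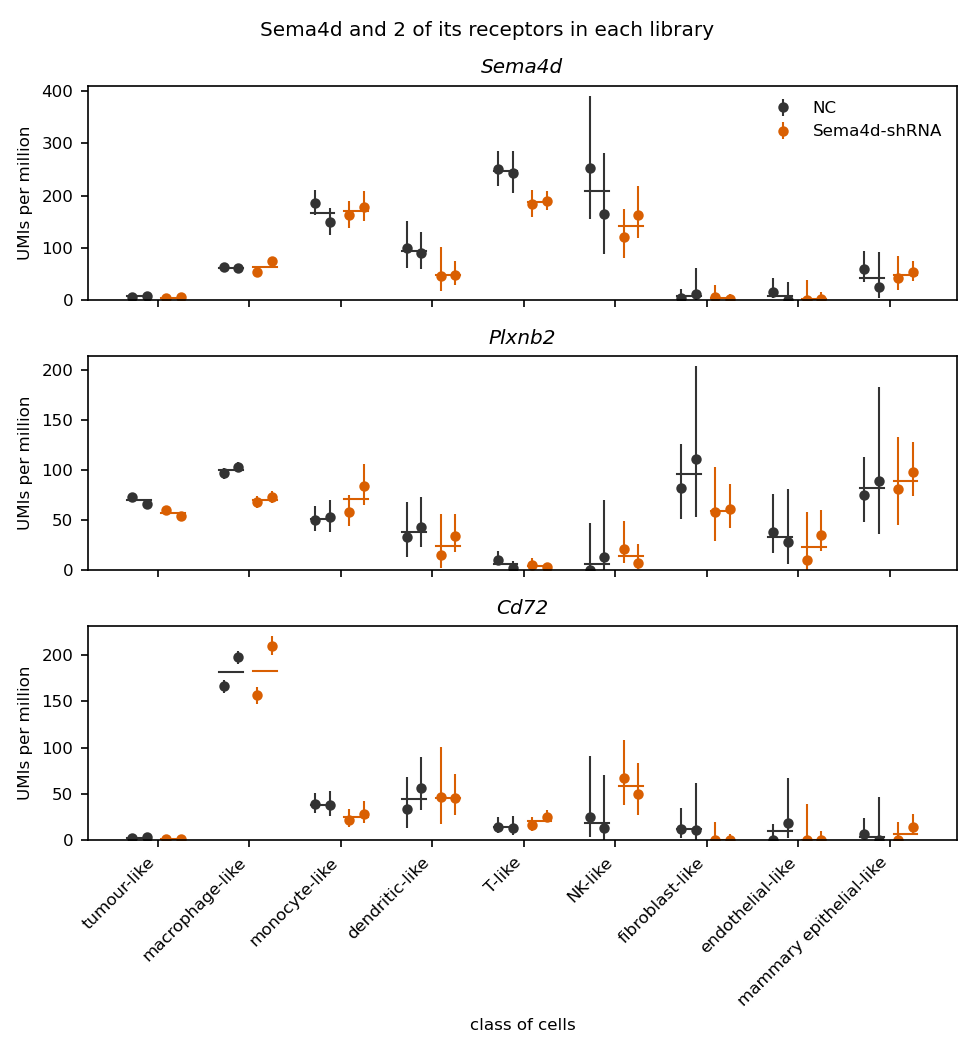
Level of Sema4d, Plxnb2 and Cd72 (vertical axes, CPM) in each library (points, black NC, orange Sema4d-shRNA) by class of cells, with exact Poisson 95% intervals that cover counting error only and a short line at each group's mean. Sema4d is highest in T-like, NK-like and monocyte-like cells, and Cd72 in macrophage-like cells (156 to 210 CPM). Plxnb2 is present in tumour-like, myeloid, fibroblast-like and mammary epithelial-like cells alike.

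Plxnd1, the receptor of Sema3e and a partner of neuropilins for Sema3c, was led by endothelial-like cells, at 582 and 818 CPM (NC) and 472 and 389 CPM (shRNA), as is known for this vessel gene. Dendritic-like cells came next at a mean of 37.3 CPM, and tumour-like cells had 13.5 to 16.6 CPM. Plxna2 had the same leader, at 59.4 to 168 CPM in endothelial-like cells. Plxnc1, the receptor of Sema7a, was at 21.1 to 23.6 CPM in macrophage-like cells and 19 to 108 CPM in dendritic-like cells, while tumour-like cells had a mean of 0.281 CPM. Plxna1 was at 17.5 to 19 CPM in tumour-like and 26.0 to 37.9 CPM in macrophage-like cells. Its highest mean was in fibroblast-like cells, at 37.8 CPM. Plxna4 had its highest mean in endothelial-like cells (33.1 CPM) and Plxna3 in mammary epithelial-like cells (17.4 CPM, of which 1 library had 50.8 CPM and the others 5.38 to 7.03 CPM).

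Neuropilins were found in tumour-like and host cells. Nrp1 was at 51.2 and 57.8 CPM (NC) and 49.3 and 32.1 CPM (shRNA) in tumour-like cells, 86.5 to 129 CPM in macrophage-like cells, 59.3 to 112 CPM in T-like cells and 224 to 588 CPM in endothelial-like cells. Nrp2 was at 101 and 97.9 CPM against 79.8 and 90.6 CPM in tumour-like cells, 58.9 to 96.1 CPM in macrophage-like cells and 97.2 to 220 CPM in endothelial-like cells. In T-like cells Nrp2 had a mean of 9.22 CPM beside a free-RNA estimate of 6.62 CPM. Every tumour-like value of Nrp2 lay above every T-like value, and every tumour-like value of Nrp1 below every T-like value.

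Each immune class with enough cells was tested against tumour-like cells over all genes, with library as a block, by edgeR's quasi-likelihood test with Benjamini-Hochberg adjustment. In macrophage-like cells 28 of the 32 genes were tested, of which 14 were higher and 12 lower than in tumour-like cells. Over all genes 38.6% were called higher and 40.8% lower, 79.4% in all, so the members' shares are to be read against a contrast that called most genes. Cd72 (log2 difference 6.67, SE 0.29, edgeR adjusted p = 2.186e-05), Plxnc1 (6.47, SE 0.17), Sema4a (5.47, SE 0.15) and Sema4d (3.57, SE 0.15) were among the higher genes. Sema7a (-4.06, SE 0.14), Sema3e (-3.67, SE 0.17) and Sema5a (-3.26, SE 0.14) were among the lower ones.

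In T-like cells 27 genes were tested, 7 were higher (Cd72, Nrp1, Plxnc1, Sema4a, Sema4d, Sema4f and Sema6d) and 16 lower, against 29.1% and 35.1% of all genes (64.1% in either direction). The log2 difference was 5.19 (SE 0.11) for Sema4d, -3.53 (SE 0.17) for Nrp2 and -3.72 (SE 0.21) for Plxnb2. In monocyte-like cells 6 of 25 were higher and 13 lower (28.7% and 37.1% of all genes, 65.8% in either direction), in dendritic-like cells 8 and 8 of 26 (17.6% and 23.9%, together 41.5%), and in NK-like cells 4 and 12 of 25 (12.9% and 25.4%, together 38.3%). Sema4d, Sema4a and Cd72 were higher in all 5 of these classes. The median log2 difference over all genes was -0.04 for macrophage-like, -0.10 for T-like, -0.24 for monocyte-like, -0.30 for dendritic-like and -0.50 for NK-like cells.

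NK-like cells, with 680183 UMIs in all, had no UMI of 15 of the genes. Among these were Sema3a, Sema3b, Sema3f, Sema5a, Plxna2 and Plxnd1, whose calls as lower in NK-like cells therefore rest on counts of 0. A count of 0 there allows up to 4.41 CPM, counting error only. Against that limit Sema5a was at least 3.91-fold and Plxnd1 at least 3.44-fold lower than in tumour-like cells, whose pooled levels were 17.2 and 15.2 CPM. Sema3a was at least 2.38-fold lower, and for the other 12 genes without a UMI the bound was under 1.5-fold or the tumour-like level lay below the limit.

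Matching ligands and receptors were then sought among 34 known pairs, a class counting as holding a gene where every library reached 10 CPM and more than 2 times its free-RNA estimate. Over the 6 tested classes, 9 pairs were held by some sender and receiver in all 4 libraries, in 135 of 1224 possible combinations of pair, sender and receiver. With a limit of 20 CPM 81 combinations were held and with 5 CPM 190. Of the 135 combinations held at 10 CPM, 70 had Sema4a and 45 had Sema4d as the ligand. Sema4d was held by macrophage-, monocyte-, dendritic-, T- and NK-like cells and Plxnb2 by tumour-, macrophage-, monocyte- and dendritic-like cells, which gave 20 combinations. Cd72 was held by all 5 immune classes, which gave 25. Tumour-like cells held Plxnb2 but neither Sema4d nor Cd72.

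Tumour-like cells held Sema3c, Sema4b, Sema5a and Sema7a as ligands. The receptors matching them were Nrp1 with Plxnd1 for Sema3c (tumour-, macrophage-, monocyte-, dendritic- and T-like cells), Nrp2 with Plxnd1 for Sema3c too (tumour- and macrophage-like cells), Plxna1 for Sema5a (tumour- and macrophage-like cells) and Plxnc1 for Sema7a (macrophage- and dendritic-like cells). Sema4b was in no listed pair. NK-like cells held Cd72 as their only listed receptor. With the fibroblast-, endothelial- and mammary epithelial-like cells included, an addition chosen after the data were seen, 17 pairs and 235 combinations were held. Among these, endothelial-like cells were the only receivers of Sema6b through Plxna2 or Plxna4.

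**Figure D3:**
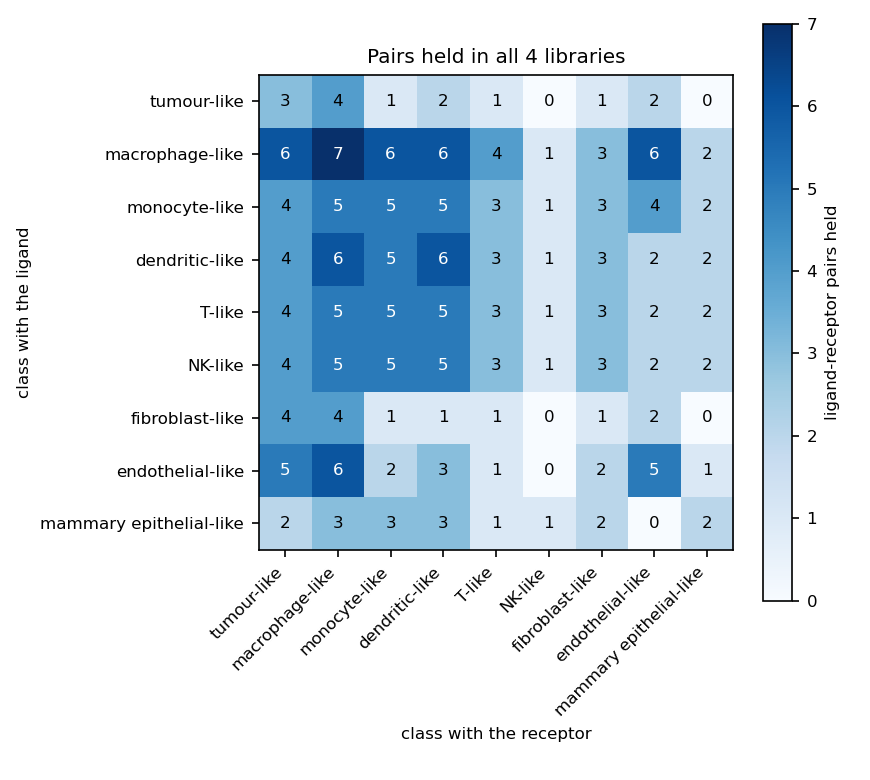
Number of ligand-receptor pairs held in all 4 libraries for each class with the ligand (rows) and class with the receptor (columns), out of 34 listed pairs. Macrophage-like cells facing macrophage-like cells held 7 pairs, tumour-like cells facing tumour-like cells 3, and NK-like cells as receivers at most 1.

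Taken by group, 164 combinations were held in both NC libraries and 151 in both shRNA libraries, and 135 were common. The 29 of NC alone had Sema3c (18), Sema3e (5), Sema3a (4) or Sema5a (2) as the ligand, and the 16 of the shRNA libraries alone had Sema7a (8), Sema4c (4), Sema3c (2) or Sema6d (2). Several turned on values close to the limit of 10 CPM. Sema3e in tumour-like cells was at 12.6 and 14.3 CPM against 9.88 and 14.2 CPM, and Sema3a at 10.6 and 11.3 CPM against 9.98 and 10.4 CPM. Sema3c in monocyte-like cells was at 21.7 and 11.4 CPM against 7.04 and 16.5 CPM. None of these 3 genes passed the test of the groups in that class, so the counts do not show a gain or loss of a pair. Transcript levels also say nothing of protein or contact.

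Within tumour-like cells the question was which of the genes moved with the shRNA, Sema4d first. Sema4d, the targeted gene, was lower in both shRNA than in both NC libraries (values above), by a log2 difference of -0.53 (SE 0.18, edgeR p = 0.01765 unadjusted, adjusted p = 0.269), and with 2 libraries on each side the smallest exact permutation p is 0.333. Plxna2, which codes for a receptor of class 3 and class 6 semaphorins, was the 1 gene of 28 tested that was called, and it was lower. Over all genes 0.572% were called, 0.0965% higher and 0.476% lower. It stood at 7.46 and 7.28 CPM in the NC and 3.64 and 4.33 CPM in the shRNA libraries, with no overlap, a log2 difference of -0.84 (SE 0.13, edgeR adjusted p = 0.0399). Of the 28 genes, 22 had a difference below 0, with a median of -0.17 against 0.01 over all genes tested. An unadjusted p under 0.05 was reached by 7, where 13% of all genes reached it, among them Sema6d (-1.34, SE 0.39, at 0.206 to 0.802 CPM), Cd72 (-0.93, SE 0.21), Sema3f (-0.38, SE 0.11) and Plxnb2 (-0.23, SE 0.09), with edgeR adjusted p of 0.104 to 0.304 for these. Cd72 in tumour-like cells lay at or below its free-RNA estimate in NC, and that estimate was lower in the shRNA libraries too (values above).

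**Figure D4:**
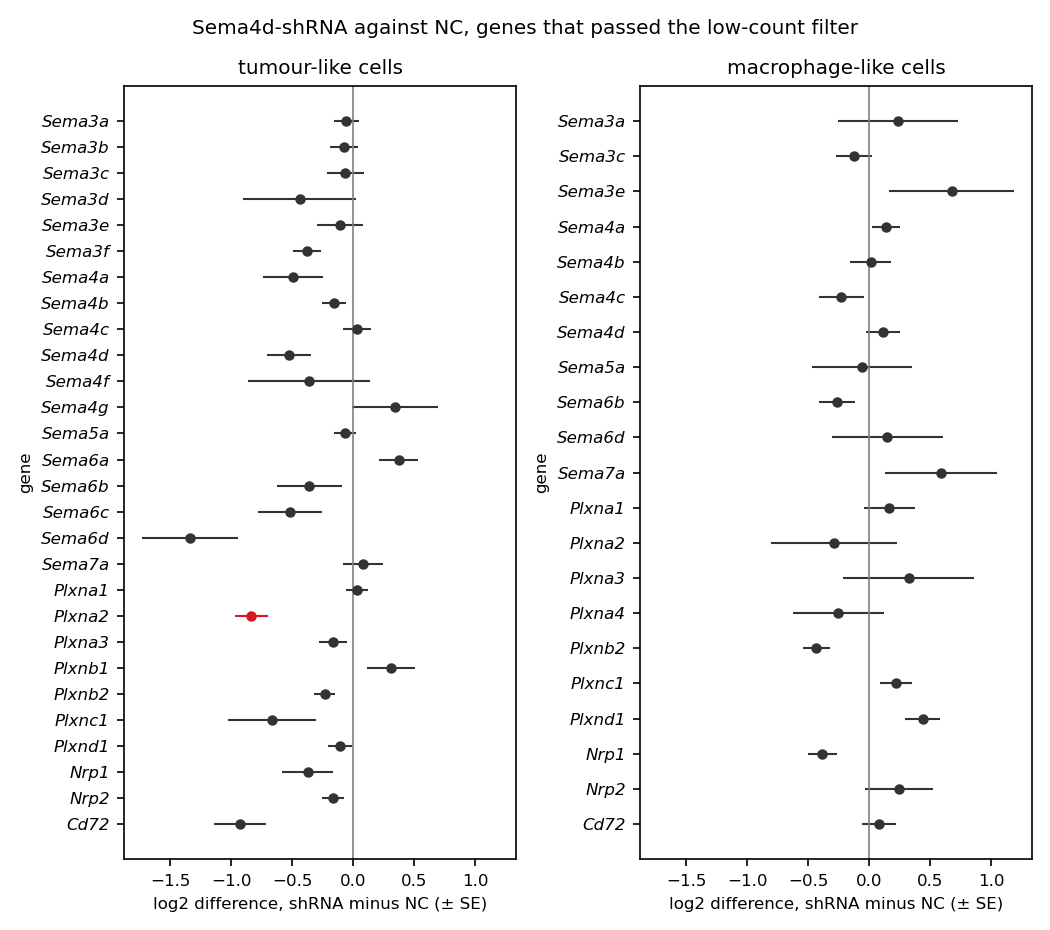
Log2 difference of Sema4d-shRNA minus NC (points, with bars of 1 SE) for the genes that passed the low-count filter in tumour-like cells (28 genes, left) and macrophage-like cells (21 genes, right). The red point, Plxna2 in tumour-like cells at -0.84, is the only one with an edgeR adjusted p under 0.05.

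Plxna2 was not spread evenly over the tumour-like cells. A cluster led by H19, Slurp1, Igfbp4 and Ly6c1 (598 cells) had 45.8 CPM, and the other 7 tumour-like clusters had 2.71 to 7.55 CPM. Its share of tumour-like cells was 4.79% and 5.03% in the NC libraries against 0.684% and 0.460% in the shRNA libraries, and it supplied 35.2%, 36.1%, 9.64% and 2.25% of their Plxna2 UMIs. Within it the level was 47.7 and 46.9 CPM in the NC and 46.5 and 20.6 CPM in the shRNA libraries, the last on 9 UMIs. The first 3 libraries were alike and the fourth was lower.

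With this cluster left out, an alternative chosen after the data were seen, Plxna2 stood at 5.12 and 4.93 CPM against 3.32 and 4.25 CPM in the tumour-like cells, a log2 difference of -0.36 (SE 0.16, edgeR adjusted p = 0.467), and 0 of the genes were called. The Sema4d difference was -0.56 (SE 0.17) without it. In this cluster the tumour marker list scored 0.79 and the fibroblast list 1.11 (2 of its markers detected), under the 2.5 that a name other than tumour needed. Without 1 of the NC libraries the edgeR adjusted p of Plxna2 was 0.222 or 0.291.

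**Figure D5:**
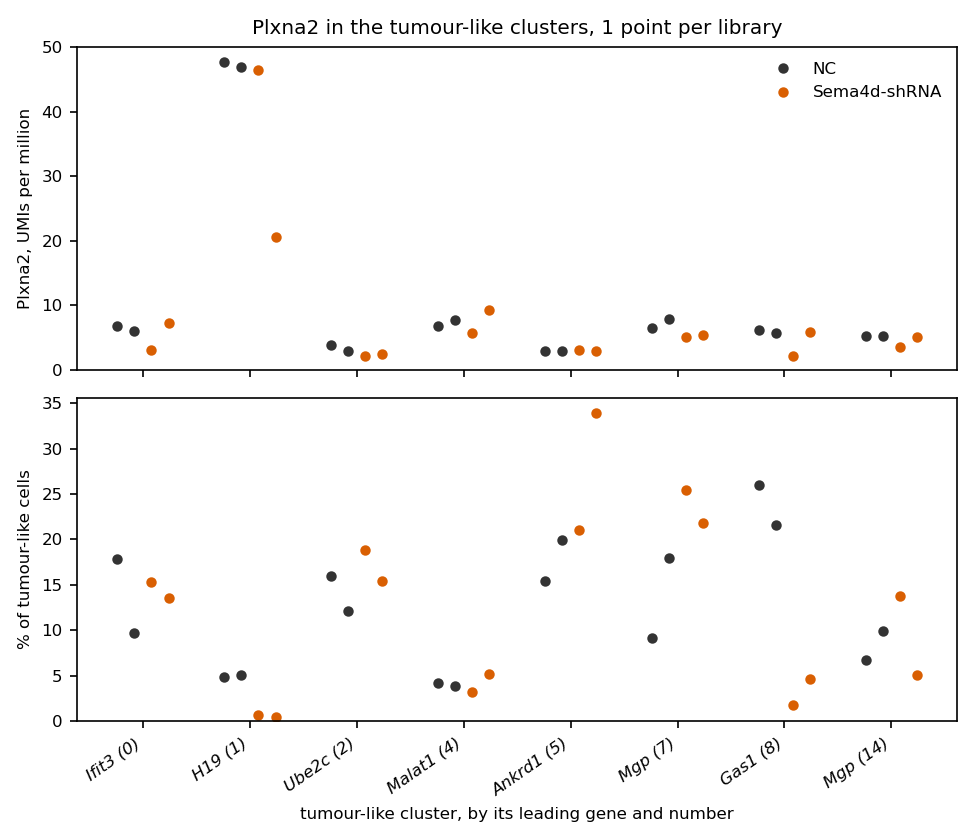
Plxna2 level (upper panel, CPM) and share of the tumour-like cells (lower panel, percent) in each of 8 tumour-like clusters, named by the leading gene and cluster number, with 1 point per library (black NC, orange Sema4d-shRNA). The H19 and Slurp1 cluster, labelled H19 (1), has the highest Plxna2 level and holds 4.79% and 5.03% of tumour-like cells in NC against 0.684% and 0.460% in the shRNA libraries.

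Other genes also varied between the tumour-like clusters, by pooled counts and without a test. Nrp1 ranged from 15.4 CPM in the cluster led by Ankrd1 and Krt8 to 179 CPM in one led by Mgp, Col6a2 and Col6a1, where its library values were 204 and 194 CPM (NC) and 188 and 126 CPM (shRNA). Plxnd1 was highest in that same cluster, at 38.9 CPM, against 8.43 CPM in the H19 and Slurp1 cluster. The cluster led by Malat1 and Zfpm2 had the highest Sema5a (37.8 CPM), Sema7a (39.8 CPM) and Sema3e (27.3 CPM). Nrp2 and Plxnb2 varied less, from 71.3 to 117 CPM and from 55.4 to 80.3 CPM.

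In macrophage-like cells 0 of 21 genes were called by edgeR and 0 by DESeq2, against 0.15% of all genes (0.025% higher), and 3 had an unadjusted p under 0.05 (8.62% of all genes). Plxnb2 was at 96.7 and 103 CPM in the NC and 67.8 and 72.8 CPM in the shRNA libraries, a log2 difference of -0.43 (SE 0.11, edgeR adjusted p = 0.234). Nrp1 was at 124 and 129 CPM against 97.1 and 86.5 CPM (-0.38, SE 0.12, edgeR adjusted p = 0.353). The groups did not overlap for either gene. Within each of the 4 macrophage-like clusters both shRNA libraries lay below both NC libraries, for Plxnb2 and for Nrp1 alike. The clusters divide the same libraries, so they add no replicates to the class values, and no test was made on them. The share of all genes with this pattern was not counted, so it is not read as particular to these 2 genes. Plxnd1 went the other way, at 19.2 and 16.9 CPM against 24 and 22.5 CPM (0.44, SE 0.14, edgeR adjusted p = 0.396). With the unnamed cluster of C1qa and Retnla added to the class, a choice made after the data were seen, 0 genes were called and the differences were -0.40 for Plxnb2, -0.36 for Nrp1 and 0.57 for Plxnd1. Without shRNA replicate 2, Nrp2 was called higher in macrophage-like cells (0.61, edgeR adjusted p = 0.0214), its values being 75.8 and 62.8 CPM in NC against 96.1 and 58.9 CPM.

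The macrophage-like cluster led by Mmp12 and Arg1 (414 cells) stood apart in these receptors, by pooled counts and without a test. It had 27.7 CPM of Nrp1, 37.8 CPM of Plxnb2 and 2.52 CPM of Sema6b, where the other 3 clusters had 92.5 to 132 CPM, 87.3 to 116 CPM and 19.2 to 41.9 CPM. Its Cd72 level, 187 CPM, lay within the 130 to 196 CPM of the others. Plxna1 was highest in it, at 58.4 CPM.

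In T-like cells 0 of 9 genes were called by edgeR and 0 by DESeq2 (0.37% of all genes), and 1 had an unadjusted p under 0.05 (6.81% of all genes). That gene was Sema4d, at 250 and 243 CPM against 183 and 190 CPM, a log2 difference of -0.38 (SE 0.13, edgeR adjusted p = 0.505), with no overlap of the groups. Sema4d was highest, at 463 CPM, in a sub-cluster of 70 cells with 504 CPM of Foxp3, the transcription factor of regulatory T cells, and lay between 145 and 243 CPM in the other 9 sub-clusters. Sema4a was lowest there, at 5.86 CPM on 1 UMI. Without that sub-cluster the Sema4d difference was -0.37 (SE 0.14). Nrp1 was highest in a sub-cluster with 341 CPM of Cd4, at 167 CPM, and in one led by Nkg7, Xcl1 and Ccl4, at 151 CPM.

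In monocyte-like cells 0 of 11 genes were called (0.188% of all genes), in dendritic-like cells 0 of 8 (0.145%) and in NK-like cells 0 of 2 (0.652%, of which 0.0869% higher and 0.565% lower), by edgeR and by DESeq2 alike. Unadjusted p under 0.05 was reached by 2, 1 and 0 of them, and by 4.91%, 3.9% and 8.47% of all genes in those classes. In monocyte-like cells these were Nrp2, at 24.7 and 30.9 CPM against 14.1 and 15.4 CPM (log2 -0.91, SE 0.35, edgeR adjusted p = 0.981), and Cd72 (-0.63, SE 0.29). The free-RNA estimate of Nrp2 there was 8.47 and 7.36 CPM (NC) and 10.5 and 10.7 CPM (shRNA), and the shRNA values lay near it. With marked doublets kept the difference was 0.01. In dendritic-like cells Sema4d was at 99.5 and 89.2 CPM against 46.2 and 48.0 CPM (-0.96, SE 0.43, edgeR adjusted p = 0.999), on 44 to 103 cells per library.

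The shRNA change was compared between classes by an interaction term. Between macrophage-like and tumour-like cells 2 of 28 genes were called, both higher, against 2.04% of all genes (1.67% higher). Sema4d differed by 0.65 (SE 0.14, edgeR adjusted p = 0.0307), its log2 change being 0.11 (SE 0.14) in macrophage-like and -0.53 in tumour-like cells. Cd72 differed by 1.00 (SE 0.16, edgeR adjusted p = 0.00398), with 0.08 in macrophage-like cells against -0.93 in tumour-like cells, where the counts were at the free-RNA level. Neither was called without NC replicate 1 (edgeR adjusted p 0.149 for Sema4d and 0.0585 for Cd72) or without NC replicate 2 (0.618 and 0.154), and Sema4d was not called without shRNA replicate 1 (0.0671). Between T-like and tumour-like cells 0 of 28 were called by edgeR (0.508% of all genes), and 3 had an unadjusted p under 0.05 (5.05% of all genes). Without shRNA replicate 1, Nrp1 was called in that comparison (1.10, SE 0.23, edgeR adjusted p = 0.000607).

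The wider pathway was followed with 61 partner genes, such as effectors of plexins, collapsin response mediators, co-receptors and sheddases. In tumour-like cells 0 of 54 tested were higher and 1 lower in the shRNA libraries, in macrophage-like cells 0 and 0 of 54, in monocyte-like cells 0 and 0 of 33, in dendritic-like cells 0 and 0 of 19, in T-like cells 1 and 0 of 28 and in NK-like cells 0 and 0 of 11, by edgeR. In the same order 0.572%, 0.15%, 0.188%, 0.145%, 0.37% and 0.652% of all genes were called. Unadjusted p under 0.05 was reached by 15, 12, 2, 1, 4 and 1 of the partners, and by 13%, 8.62%, 4.91%, 3.9%, 6.81% and 8.47% of all genes. The called gene was in both cases Tyrobp, the adaptor DAP12 that links the plexin-A1 and TREM2 complex to its kinases in myeloid cells. Its mean was 3450 CPM in macrophage-like and 3062 CPM in NK-like cells. A T-like sub-cluster led by Xcl1, Gzmc and Nkg7 held 13 of 314 and 11 of 212 T-like cells in NC. In the shRNA libraries it held 68 of 372 and 84 of 790, and other sub-clusters also differed in share. The part of such shifts in the T-like Tyrobp difference, given below, was not tested.

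Tyrobp was at 30.0 and 34.7 CPM against 16.7 and 19.6 CPM in tumour-like cells (log2 -0.78, SE 0.11, edgeR adjusted p = 0.0287), below the free-RNA estimates of 58.2, 59.8, 24.9 and 26.5 CPM. In T-like cells Tyrobp was at 163 and 140 CPM against 232 and 325 CPM (0.91, SE 0.16, edgeR adjusted p = 0.00945), above the free-RNA estimates of 26.1 to 60.4 CPM. DESeq2 gave it an adjusted p of 0.0559 in T-like cells, edgeR gave 0.0798 without shRNA replicate 2 and 0.245 with clusters at resolution 2. In tumour-like cells edgeR no longer called Tyrobp when either NC library was left out. Subtracting free RNA left Tyrobp no counts there, because it lay below the estimate in every library. That setting therefore could not call it, and 0 partner genes were called. In macrophage-like cells the smallest p belonged to Dpysl2, a collapsin response mediator (161 ± 7.59 CPM in NC and 118 ± 7.17 CPM in shRNA libraries, SD over 2 libraries, log2 -0.37, edgeR adjusted p = 0.298), Vegfa (0.73, edgeR adjusted p = 0.298) and Mical2 (0.89, edgeR adjusted p = 0.347). In tumour-like cells Dpysl2 (-0.41, edgeR adjusted p = 0.0603) and L1cam (-1.58, edgeR adjusted p = 0.0796) followed Tyrobp. In T-like cells Trem2 (-2.28, edgeR adjusted p = 0.333) and Furin (0.68, edgeR adjusted p = 0.568) came after it.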

How the data were processed

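The authors deposited raw UMI counts per gene and cell, in matrices written by PISA 1.0 per the file headers. The submitters' processing notes name STAR 2.5.1b and the builds GRCh38 and mm10, without roles. Cells needed 300 genes, with mitochondrial UMIs of 20% or less. In each library the 6% of cells with the highest scrublet scores were marked as doublets and left out of the sums. Clustering used scanpy 1.11.5 (2000 variable genes without the 32 members, 30 components, resolution 1), and lymphoid and dendritic clusters were split again. A cluster took a class name from marker lists if its score reached 2.5 with 3 markers at 20 CPM, tumour aside. Free RNA was estimated per class and library from markers of classes that it should lack. The largest value over the marker lists was used, with the summed cells of the library as the source profile.

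Counts summed per class and library were compared by edgeR 4.0.16 under R 4.3.3 with limma 3.58.1 (filterByExpr, TMM, robust quasi-likelihood, group as the only term), with Benjamini-Hochberg adjustment over all genes tested at a limit of 0.05. Classes needed 20 cells in every library. Contrasts between classes had library as a block. DESeq2 1.42.0 was an alternative, and the closing section gives the others. The group and interaction tests were tried on simulated data, with changes larger than most found here and set in genes of many counts. The contrasts between classes were not tried in this way. Intervals, and limits of 3 counts for a count of 0, cover counting error only.

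All 32 genes are accounted for, and partner genes are named if called or among the 3 with the smallest p in tumour-, macrophage- and T-like cells. The members and lists were chosen with earlier results of these data known.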

Additional observations from a re-analysis of the deposited data

Results flagged for a closer look

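For 2 genes the shRNA change differed between macrophage-like and tumour-like cells by the interaction test. Sema4d differed by 0.65 on the log2 scale (SE 0.14, edgeR adjusted p = 0.0307), the tumour-like change being the negative one. Cd72 differed by 1.00 (SE 0.16, edgeR adjusted p = 0.00398), again with the negative change in tumour-like cells, whose Cd72 counts lay at the estimated level of free RNA. The part of free RNA in either difference was not tested beyond these values. A negative Sema4d change was not limited to tumour-like cells. It was -0.38 (SE 0.13) in T-like, -0.52 (SE 0.33) in NK-like and -0.96 (SE 0.43) in dendritic-like cells, none of them called. In monocyte-like cells the Sema4d change was 0.0022 (SE 0.18). Between T-like and tumour-like cells the Sema4d change differed by 0.19 (SE 0.20), which was not called.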

How the results depend on the processing

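Across the alternatives to the comparisons, 201 results stayed the same and 31 counts moved by over 1.5 times or to or from 0. Most of these results were counts of genes called, and a count that stayed within 1.5 times, or at 0, was taken as the same. The Sema4d difference in tumour-like cells was judged by its direction and its side of the threshold, and 2 of its values newly passed the threshold. For the other differences of single genes 107 values kept their direction and their side of the threshold. Of the rest, 14 no longer passed the threshold, 2 newly passed it and 1 changed sign. For Sema4d in tumour-like cells the difference ranged from -0.81 to -0.28 when 1 library was left out, with an edgeR adjusted p of 0.0129 without shRNA replicate 2, and it was -0.51 (edgeR adjusted p = 0.0107) without the low-count filter. Members called in tumour-like cells numbered 5 of 32 without that filter (3.95% of all genes), 0 with the replicate block, 0 without the H19 and Slurp1 cluster and 0 to 2 when a library was left out. In macrophage-like cells they numbered 1 without the filter (1.47% of all genes) and 0 to 1 with a library left out.

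Partner genes called in tumour-like cells numbered 2 by DESeq2, 8 without the filter, 0 with free RNA subtracted and 0 to 4 with a library left out. In macrophage-like cells they numbered 3 without the filter, 1 with the replicate block and 0 to 2 with a library left out. The count was 0 to 1 with a library left out in monocyte-like cells, 1 with the replicate block in dendritic-like cells, and in T-like cells 0 by DESeq2, 0 at resolution 2 and 0 to 1 with a library left out. With a library left out, the members lower in NK-like than in tumour-like cells numbered 7 (without shRNA replicate 1) to 10, the members called by the interaction of macrophage-like and tumour-like cells 0 (without either NC library) to 3, and those of T-like and tumour-like cells 0 to 1 (without shRNA replicate 1).

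The combinations of pair, sender and receiver held numbered 81 at a limit of 20 CPM and 235 with the small classes. The Nrp2 difference in monocyte-like cells turned to 0.0097 with marked doublets kept. The cause of these shifts was not tested. Deviations of same-numbered libraries correlated at -0.010 in tumour-like and 0.059 in macrophage-like cells, and from -0.043 (NK-like) to 0.125 (dendritic-like) over the tested classes. Whether these libraries share more than a number cannot be told from this. With the replicate block Plxna2 had a difference of -0.84 (edgeR adjusted p = 0.0627). The block moved the genes called by edgeR from 28 to 51 in T-like and from 5 to 32 in dendritic-like cells, and left 83 in tumour-like cells. Classes of few cells, such as NK-like with 2 genes tested, limit what could be detected.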
